A study of Mus musculus with 4 samples.

Results

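The probe sets of 10 genes were examined in mouse liver. The genes were the cathepsin genes Ctsb, Ctsc, Ctsd, Ctsh, Ctsl and Ctss, the lysosomal membrane protein genes Cd63, Lamp1 and Lamp2, and Lgals3, which encodes galectin-3. All probe sets with 1 of these symbols as their single annotation were taken, which gave 16 probe sets for the 10 genes out of 8251 genes with a single symbol on the array. Total liver RNA was measured on Affymetrix MG_U74Av2 arrays, 2 from PEPCK-TAg transgenic mice and 2 from non-transgenic wild-type mice. The PEPCK-TAg transgene places the large T and small t antigens of the virus SV40 under the promoter of the gene for phosphoenolpyruvate carboxykinase, which is active in hepatocytes and also in kidney. All animals were male B6SJL hybrids aged 58 to 60 days, fed a diet of 10% protein and 70% carbohydrate freely for 4 weeks after weaning. The labels speak of duplicate measurements and leave unsaid whether separate animals were used, so the p-values reflect array-to-array spread, part or all of which may be technical.

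Lysosomes are acidic organelles that degrade proteins, lipids and sugars delivered by endocytosis and autophagy. Cathepsins are their proteases, made as inactive precursors and carried there largely by mannose phosphate receptors, while heavily glycosylated membrane proteins line the organelle. Ctsb, Ctsd, Ctsh and Ctsl are expressed in most cells, hepatocytes included. Ctss is typical of macrophages and other antigen-presenting cells, and Ctsc, although widely expressed, is especially abundant in immune cells. In liver, the resident macrophages are the Kupffer cells, which take up particles and dying cells.

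Values are the deposited MAS5 signals on a linear scale, and changes are in log2(signal + 13), PEPCK-TAg minus wild type, which understates the change of dim probe sets. Across all non-control probe sets, log2 values correlated with r = 0.977 between the PEPCK-TAg arrays and 0.975 between the wild-type arrays, and with 0.943 to 0.954 for pairs of 1 array from each group (r is across probe sets, which are no replicates). Each array had a trimmed mean signal of 250.2. The median signal was 84.8 and 89.1 in PEPCK-TAg and 79.15 and 75.75 in wild type, without overlap. The liver markers were bright on all arrays, Alb for instance with 13339 and 12446 in PEPCK-TAg and 16723 and 14430 in wild type. The ratio of 3′ to 5′ signal, a measure of RNA quality, was 3.36 and 2.95 for Gapdh in PEPCK-TAg and 3.67 and 3.80 in wild type, without overlap, and 4.06 to 5.06 for actin over all arrays. Its part in the results below was not tested. The macrophage markers described below differed between the arrays of each group.

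Among the 10 genes, the macrophage-type protease gene Ctss, the tetraspanin gene Cd63 and the galectin gene Lgals3 rose in PEPCK-TAg liver, and no probe set fell. The Lgals3 call lay at the threshold and was lost without the filter on dim probe sets, which it passed only through its PEPCK-TAg level (limma, Benjamini-Hochberg adjusted p = 0.113 without the filter). Ctss was 2.80-fold, Cd63 4.45-fold and Lgals3 4.79-fold higher as a ratio of mean signals. The groups overlapped for the broad cathepsin genes Ctsh and Ctsl and the membrane protein gene Lamp1, with ratios of mean signals of 1.01 for Ctsl and 0.954 for Lamp1. For the broad cathepsin genes Ctsd and Ctsb (94831_at and 95608_at) PEPCK-TAg lay above wild type without overlap, though none passed the test. Their ratios were 1.45, 1.21 and 1.70, and the other Ctsb probe sets overlapped. Of 15 tested probe sets, 3 were called higher by limma with Benjamini-Hochberg adjustment over all 7453 tested probe sets, of which 6.4% were called higher and 9.47% in either direction. A total of 0 were called lower, where 3.07% of all tested were. At an unadjusted p under 0.05, 6 were higher and 0 lower. The share of all tested probe sets under this looser cut is not given, here or for the lists below. It is at least the 9.47% called after adjustment, and the counts under this cut were not compared with it. The groups did not overlap in 7 probe sets with PEPCK-TAg above and 2 with PEPCK-TAg below, against 30.2% and 26.3% of all tested probe sets. The median change was 0.28 over the 15 probe sets and 0.01 over all tested ones. Only Cd63 stayed called when wild-type replicate 1 was left out. There were 2 calls when PEPCK-TAg replicate 2 was left out and 4 when wild-type replicate 2 was.

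**Figure D1:**
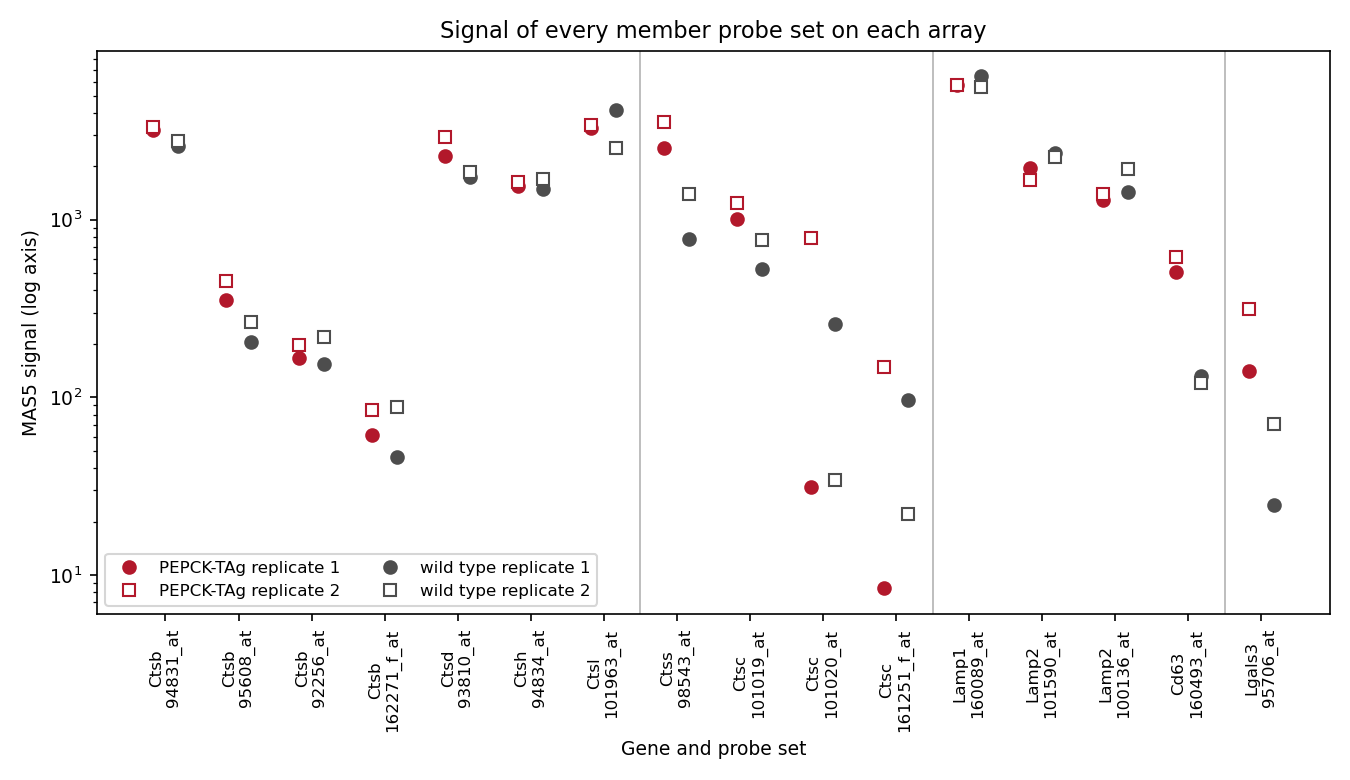
The y axis gives the MAS5 signal on a log axis, and the x axis the 16 probe sets by gene, with the PEPCK-TAg arrays (red) left of the wild-type arrays (grey) and replicates told apart by filled circles and open squares. Both red points lie above both grey points for Ctss, Cd63 and Lgals3, while those of Ctsh, Ctsl and Lamp1 overlap, and 2 Ctsc probe sets are scattered within both groups. The red points also lie above the grey for Ctsd, Ctsb (94831_at and 95608_at) and Ctsc (101019_at), which were not called.

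Stretches before the start of 4 of these genes are shown with their short matches to lysosomal and immune motifs known from cell studies. The genes, picked for display, are Ctss and Cd63, which rose, and Ctsd and Lamp1, which did not pass the test. Each stretch is 250 bases before the RefSeq transcript start, 5′ to 3′ on the gene's strand, build GRCm38.p6. Capitals mark every match to 1 of 4 motifs on either strand: CACGTG and its longer form TCACGTG (the core read by TFEB, a regulator of lysosomal genes), GAGGAA (a core of sites for PU.1, a factor of myeloid cells) and the interferon-stimulated response element, which has a spacer of any bases. The Cd63 start used is that of the RefSeq promoter table, and the RefSeq gene record begins further upstream.
Ctss, chr3:95526536-95526785, plus strand: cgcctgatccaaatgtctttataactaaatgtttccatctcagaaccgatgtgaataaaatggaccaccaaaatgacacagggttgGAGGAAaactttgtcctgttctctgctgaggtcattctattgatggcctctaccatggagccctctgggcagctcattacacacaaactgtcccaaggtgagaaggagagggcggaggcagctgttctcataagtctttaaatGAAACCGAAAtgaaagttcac
Cd63, chr10:128909095-128909344, plus strand: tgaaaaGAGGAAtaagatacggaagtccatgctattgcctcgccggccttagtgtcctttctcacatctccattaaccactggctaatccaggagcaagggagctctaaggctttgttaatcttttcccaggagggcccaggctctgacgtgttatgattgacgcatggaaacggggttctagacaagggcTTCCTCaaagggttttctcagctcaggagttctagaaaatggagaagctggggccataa
Ctsd, chr7:142387828-142388077, minus strand: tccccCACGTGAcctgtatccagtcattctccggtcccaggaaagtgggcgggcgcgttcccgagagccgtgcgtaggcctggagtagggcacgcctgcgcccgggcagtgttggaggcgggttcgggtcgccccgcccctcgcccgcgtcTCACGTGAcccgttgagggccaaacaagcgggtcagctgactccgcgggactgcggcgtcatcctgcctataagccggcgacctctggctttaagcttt
Lamp1, chr8:13158911-13159160, plus strand: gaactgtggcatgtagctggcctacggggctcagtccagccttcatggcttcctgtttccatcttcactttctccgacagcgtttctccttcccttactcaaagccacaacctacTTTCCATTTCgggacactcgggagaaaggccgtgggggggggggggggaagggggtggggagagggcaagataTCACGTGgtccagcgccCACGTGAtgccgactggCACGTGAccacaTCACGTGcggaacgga

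Of the 10 genes, 8 had a promoter window in the RefSeq table, which runs from 250 bases before to 50 after the start, and Ctsb and Ctsh had none. CACGTG stood in the windows of 3 genes, Ctsd, Ctsl and Lamp1, against 7.15% of all 32851 windows, and Lamp1 held 4 copies of it. The longer TCACGTG, which contains CACGTG and overlaps it, stood in those of Ctsd and Lamp1 and in 3.77% of all windows. GAGGAA stood in 4, those of Ctss, Ctsc, Lamp2 and Cd63, and in 28.3% of all. One of the 2 copies at Ctss begins at the start itself and lies outside the printed stretch. The interferon-stimulated response element stood in 2, at 21 bases before the start of Ctss and at 135 before that of Lamp1, and in 3.44% of all. The Lgals3 window held none of the 4. These matches describe the letters only, and no binding was measured.

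The broad cathepsins did not pass the test in the main fit. Ctsd, the main aspartic protease of the lysosome, had signals of 2289 and 2935 in PEPCK-TAg and 1746 and 1855 in wild type. The PEPCK-TAg arrays were the higher ones without overlap, and the change was 0.52 ± 0.17 (log2 ± SE; limma, Benjamini-Hochberg adjusted p = 0.109). The 95% interval of the Ctsd change, not adjusted for the number of tests, ran from 0.12 to 0.93. Ctsh, an aminopeptidase of the cysteine protease family, had 1549 and 1636 in PEPCK-TAg and 1498 and 1687 in wild type. Its groups overlapped, and the 95% interval of the change ran from -0.35 to 0.36. Ctsl, a cysteine endopeptidase, had 3296 and 3418 in PEPCK-TAg and 4123 and 2534 in wild type. Here the wild-type arrays lay on either side of the PEPCK-TAg arrays, and the interval ran from -0.50 to 0.61. The size of these changes depended on the normalization. With quantile normalization and cyclic loess, Ctsd was at 0.70 and 0.68, Ctsl at 0.29 and 0.26, and Ctsh at 0.13 and 0.12. Median centring gave 0.38 for Ctsd, -0.090 for Ctsl and -0.14 for Ctsh. None of the Ctsd, Ctsl and Ctsh changes passed under these normalizations.

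Ctsb, a cysteine protease abundant in liver, was read by 4 probe sets that differed in their change. The brightest (94831_at) had signals of 3196 and 3307 in PEPCK-TAg and 2589 and 2780.1 in wild type, without overlap and with a change of 0.28 ± 0.13 (limma, Benjamini-Hochberg adjusted p = 0.249). Its change was 0.46 with quantile normalization and with cyclic loess and 0.13 with median centring, and did not pass in any of them. The probe set 95608_at had 353 and 452 in PEPCK-TAg and 206 and 266 in wild type, also apart, with a change of 0.74 ± 0.21 (limma, Benjamini-Hochberg adjusted p = 0.0775). The other two overlapped between groups, 92256_at with 168 and 198 in PEPCK-TAg and 154 and 219.5 in wild type, and 162271_f_at with 61.1 and 84.5 in PEPCK-TAg and 46.0 and 88.2 in wild type. Their changes were -0.015 and 0.14. The suffix _f_at means that a probe set may also detect related transcripts.

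Of the macrophage-type cathepsins, Ctss rose and Ctsc did not pass the test. Ctss, which trims the invariant chain during loading of class II molecules, had signals of 2526 and 3540 in PEPCK-TAg and 775 and 1394 in wild type. All PEPCK-TAg values lay above all wild-type values, although the arrays differed within each group, replicate 2 being the higher in both. The change was 1.51 ± 0.30 (log2 ± SE; limma, Benjamini-Hochberg adjusted p = 0.0277), with a 95% interval of 0.80 to 2.23. Without wild-type replicate 1 it was 1.09 and no longer passed (limma, Benjamini-Hochberg adjusted p = 0.0636). The call was also lost without the filter on dim probe sets (limma, Benjamini-Hochberg adjusted p = 0.0680) and without the mean-variance trend (0.0552).

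Ctsc, a dipeptidyl peptidase that activates the serine proteases of immune cell granules, was read by 3 probe sets. The brightest (101019_at) had 1015 and 1248 in PEPCK-TAg and 528 and 767 in wild type. The groups stood apart, with a change of 0.81 ± 0.22 that did not pass (limma, Benjamini-Hochberg adjusted p = 0.0711), though it did without wild-type replicate 2 (0.0417). The other two were erratic: 101020_at had 31.3 and 791 in PEPCK-TAg and 260 and 34.2 in wild type, and 161251_f_at had 8.40 and 148 in PEPCK-TAg and 96.7 and 22.0 in wild type. Both were high on PEPCK-TAg replicate 2 and wild-type replicate 1 and low on the other arrays. The first had a change of 0.73 with an interval of -2.51 to 3.98, and the second was under the filter and was not tested.

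Of the membrane proteins, Cd63 rose, and Lamp1 and Lamp2 did not pass the test. Cd63, a tetraspanin of late endosomes, lysosomes and exosomes, had signals of 507 and 618 in PEPCK-TAg and 132 and 121 in wild type. The gap between the groups was far wider than the spread within either, and the change was 2.04 ± 0.18 (log2 ± SE; limma, Benjamini-Hochberg adjusted p = 0.00188). Cd63 was called higher under all 13 alternatives, with changes from 1.89 to 2.18 and adjusted p-values from 0.000676 to 0.00990 by limma.

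Lamp1, the major glycoprotein of the lysosomal membrane, had signals of 5732 and 5719 in PEPCK-TAg and 6417 and 5581 in wild type. The groups overlapped, and the interval of its change, -0.38 to 0.25, did not reach the lower bound of Cd63 (1.61). Lamp2, which with its splice forms also serves chaperone-mediated autophagy, had 1951 and 1667 in PEPCK-TAg and 2391 and 2244 in wild type by 101590_at. By 100136_at it had 1300 and 1404 in PEPCK-TAg and 1436 and 1928 in wild type. In both probe sets PEPCK-TAg lay below wild type without overlap, by changes of -0.36 ± 0.15 and -0.30 ± 0.18 (limma, Benjamini-Hochberg adjusted p = 0.190 and 0.362).

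Lgals3, a lectin for galactosides also known as the macrophage antigen Mac-2, which gathers on damaged lysosomes, had signals of 141 and 316 in PEPCK-TAg and 24.9 and 70.6 in wild type. The groups did not overlap, and within each the replicate 2 array was the higher. The change was 2.0 ± 0.48 (log2 ± SE; limma, Benjamini-Hochberg adjusted p = 0.0497), close to the threshold. The call was lost under 8 of the 12 alternatives that tested it, among them the fit without the filter (limma, Benjamini-Hochberg adjusted p = 0.113) and the fits without PEPCK-TAg replicate 2 (change 1.45; limma, Benjamini-Hochberg adjusted p = 0.129) and without wild-type replicate 1 (change 1.43, adjusted p = 0.144). Its mean signal in wild type, 47.8, was below the lowest kept mean of 48.1, and the probe set was not tested with the filter at the 60th percentile.

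**Figure D2:**
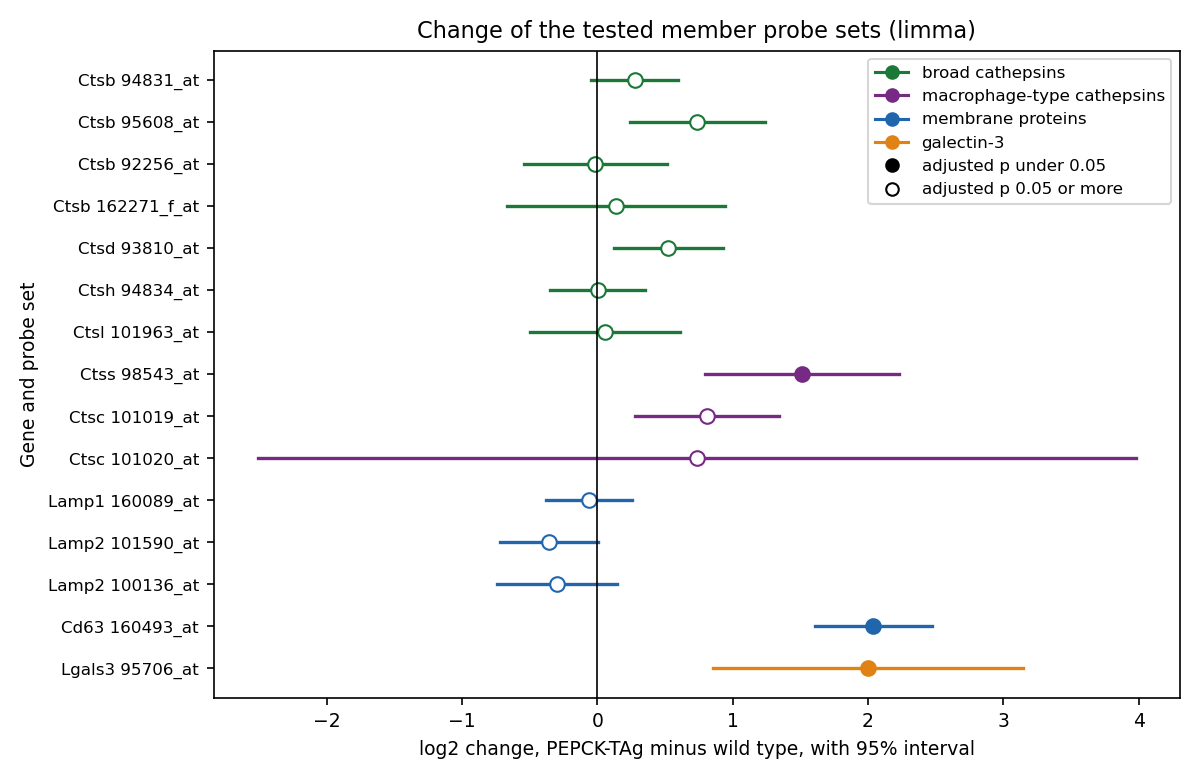
The x axis gives the log2 change, PEPCK-TAg minus wild type, with its 95% interval from limma, for the 15 tested probe sets on the y axis, coloured by role and filled where the adjusted p was under 0.05. Ctss (1.51), Cd63 (2.04) and Lgals3 (2.0) are filled, and the intervals of Ctsh, Ctsl, Lamp1 and Lamp2 include 0. Those of Ctsd, Ctsb (95608_at) and Ctsc (101019_at) lie above 0, although their points are open. The intervals are not adjusted for the number of tests.

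Several macrophage markers were higher alongside Ctss. Of 25 macrophage markers listed, 22 were on the array and 19 were tested, and 7 rose and 0 fell, where 6.4% of all tested probe sets were called higher. The other 12 did not pass, 5 of the 19 overlapped between groups, and the median change was 1.08. At an unadjusted p under 0.05 the counts were 13 and 0. The 22 signals summed to 13511 and 18222 in PEPCK-TAg and 4553 and 7756 in wild type, and none was at 0. Mpeg1, which encodes a pore-forming protein of phagocytes, had 3144 and 2776 in PEPCK-TAg and 349 and 294 in wild type, a change of 3.15 ± 0.17 (limma, Benjamini-Hochberg adjusted p = 0.000643). The Kupffer cell lectin gene Clec4f had 1972 and 2953 in PEPCK-TAg and 738 and 1209 in wild type, a change of 1.34. Cd5l (1.67), the endotoxin co-receptor gene Cd14 (1.55), the complement gene C1qb (1.31) and Laptm5, a lysosomal protein of blood cells, rose as well. Laptm5 changed by 1.08 by its brightest probe set, which may also detect related transcripts, and by 2.65 by its other probe set (limma, Benjamini-Hochberg adjusted p = 0.00573). The pan-macrophage receptor gene Adgre1 had 115 and 261 in PEPCK-TAg and 91.4 and 186 in wild type, which overlap, and Csf1r had 643 and 960.0 in PEPCK-TAg and 458 and 848 in wild type, which overlap too. Leaving out 1 array gave 4 macrophage calls (wild-type replicate 1), 3 (PEPCK-TAg replicate 2) or 11 (wild-type replicate 2). The fit without the filter gave 2, that without the trend 4 and that with a replicate block 14. The list median was 0.58 without wild-type replicate 1 and 1.67 without wild-type replicate 2. Of the genes named, Clec4f, C1qb and Laptm5 (brightest probe set) lost their call when PEPCK-TAg replicate 2 was left out. Clec4f and C1qb also lost it with wild-type replicate 1 left out, and Laptm5 with wild-type replicate 2 left out. In whole liver, more macrophages and more RNA of these genes per macrophage cannot be told apart.

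Within-array values were then set out, a step chosen after the values were seen. Relative to the wild-type mean in log2, Ctss stood at 1.27 and 1.75 on the PEPCK-TAg arrays and at -0.42 and 0.42 on the wild-type arrays. The mean of the 19 macrophage markers stood at 0.80 and 1.45 in PEPCK-TAg and at -0.42 and 0.42 in wild type. With that mean subtracted array by array, Ctss was at 0.47 and 0.30 in PEPCK-TAg and at -0.0014 and 0.0014 in wild type. The wild-type arrays thus differed in Ctss as much as in the macrophage markers. Subtracted in the same way, Cd63 was at 1.10 and 0.73 in PEPCK-TAg and 0.47 and -0.47 in wild type, and Lgals3 at 0.65 and 1.10 in PEPCK-TAg and -0.15 and 0.15 in wild type. Both PEPCK-TAg arrays stayed above both wild-type arrays for these 3 genes. What remains after subtraction depends on which markers are averaged. Changes of the 19 markers ran from -0.055 (Aif1) to 3.15 (Mpeg1), and those of Ctss (1.51), Cd63 (2.04) and Lgals3 (2.0) lay within this range. Ctsc by its brightest probe set was at -0.14 and -0.50 in PEPCK-TAg and 0.15 and -0.15 in wild type, and its groups overlapped. The part of macrophage content in the changes of Ctss, Ctsc, Cd63 and Lgals3 was not tested.

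The roles could also be compared without any array scaling, by subtracting the mean of the 4 broad cathepsins on each array. On this scale Ctss stood at 1.12 and 1.47 in PEPCK-TAg and -0.46 and 0.46 in wild type, a difference of 1.30 between the group means. Cd63 stood at 1.75 and 1.90 in PEPCK-TAg and 0.01 and -0.01 in wild type, a difference of 1.83. Lgals3 stood at 1.31 and 2.27 in PEPCK-TAg and -0.61 and 0.61 in wild type, a difference of 1.79, and Ctsc at 0.52 and 0.68 in PEPCK-TAg and -0.31 and 0.31 in wild type, a difference of 0.60. In each the PEPCK-TAg arrays lay above the wild-type arrays. The subtracted mean itself stood at 0.15 and 0.28 in PEPCK-TAg and at 0.04 and -0.04 in wild type. All these differences are given as a description and were not tested.

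**Figure D3:**
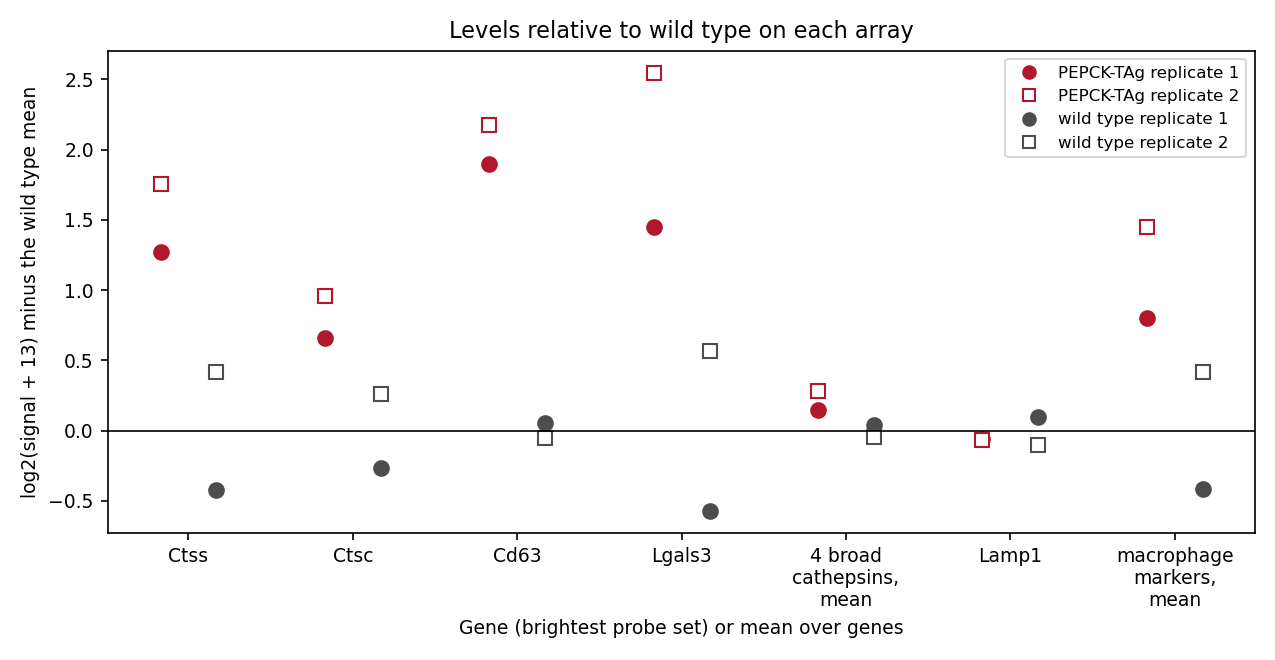
The y axis gives log2(signal + 13) minus the wild-type mean on each array, and the x axis genes by their brightest probe set or means over genes, with PEPCK-TAg (red) left of wild type (grey) and replicates as filled circles and open squares. Ctss and the macrophage mean share the wild-type spread of -0.42 and 0.42, whereas Cd63 has nearly none (0.05 and -0.05) and stands at 1.90 and 2.18 in PEPCK-TAg.

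Genes that act with the cathepsins were counted by lists. Of 10 tested genes among other cathepsins and lysosomal peptidases, 1 rose and 2 fell, with a median of -0.23. Legumain (Lgmn), an asparagine-specific protease that processes cathepsins, had 786 and 983 in PEPCK-TAg and 306 and 493 in wild type, a change of 1.15 ± 0.25 (limma, Benjamini-Hochberg adjusted p = 0.0383). Ctsz, a carboxypeptidase, ran the other way with 1023 and 1082 in PEPCK-TAg and 1964 and 1893 in wild type, a change of -0.87 ± 0.14 (limma, Benjamini-Hochberg adjusted p = 0.0159). Ctse, an aspartic protease of endosomes, had 437 and 248 in PEPCK-TAg and 776 and 1068 in wild type, a change of -1.43 ± 0.29 (limma, Benjamini-Hochberg adjusted p = 0.0305), by a probe set that may also detect related transcripts. None of these 3 calls survived every fit that left out an array: Lgmn and Ctsz were lost without wild-type replicate 1 (limma, Benjamini-Hochberg adjusted p = 0.0970 and 0.0593), Lgmn also without PEPCK-TAg replicate 2 (0.0918), Ctsz without PEPCK-TAg replicate 1 (0.0594), and Ctse without wild-type replicates 1 and 2 (0.0545 and 0.0959).

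Of 5 protease inhibitors on the array, a list of cystatins, which inhibit cysteine cathepsins, and of serpins, known mainly as inhibitors of serine proteases, 3 were tested. The cystatin genes Cstb and Cst3 rose, and the serpin gene Serpinb6a, which is the median of the list at 1.06, did not pass (limma, Benjamini-Hochberg adjusted p = 0.0972). Cystatin B (Cstb), the cytosolic inhibitor, had 1975 and 2499 in PEPCK-TAg and 850 and 641 in wild type, a change of 1.57 ± 0.20 (limma, Benjamini-Hochberg adjusted p = 0.00716), and was called in all 4 fits that left out an array. Cystatin C (Cst3), the secreted inhibitor, had 1869 and 1877 in PEPCK-TAg and 1084 and 1139 in wild type, a change of 0.75 ± 0.14 (limma, Benjamini-Hochberg adjusted p = 0.0238). Its call was lost in each of those 4 fits, with adjusted p-values from 0.0554 to 0.0909 by limma.

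Other enzymes and membrane genes of the lysosome were mixed. Of 19 tested lysosomal hydrolases, 0 rose and 1 fell, with a median of 0.03 and, at an unadjusted p under 0.05, 1 higher and 2 lower by limma. The one was Gaa, the acid glucosidase that breaks down glycogen, with 411 and 467 in PEPCK-TAg and 835 and 729.8 in wild type, a change of -0.81 ± 0.17 (limma, Benjamini-Hochberg adjusted p = 0.0311). Of 5 activators and lipid carriers 1 rose: Psap, the precursor of the saposins that help degrade sphingolipids, had 1184 and 1222 in PEPCK-TAg and 564 and 633 in wild type, a change of 0.99 ± 0.15 (limma, Benjamini-Hochberg adjusted p = 0.0134), against a list median of -0.29. Of 9 other lysosomal membrane genes, Laptm5 alone rose and 0 fell, with a median of 0.28. Of 15 subunits of the V-ATPase, the proton pump that acidifies lysosomes, 0 rose and 1 fell, with a median of -0.08. This was Atp6v0d1, with 657 and 757 in PEPCK-TAg and 1118 and 1259 in wild type, a change of -0.74 ± 0.16 (limma, Benjamini-Hochberg adjusted p = 0.0383). Gaa and Atp6v0d1 lost their call whichever of the 4 arrays was left out. Psap lost its call without wild-type replicate 1, where its change was 0.91. Of 15 genes of lysosomal sorting and biogenesis, 0 passed, with a median of -0.04 and 1 gene higher and 0 lower at an unadjusted p under 0.05 by limma. The clathrin heavy chain gene Cltc had 1410.2 and 1585 in PEPCK-TAg and 1126 and 1162 in wild type (limma, Benjamini-Hochberg adjusted p = 0.164), and Vps4b, an ATPase of endosomal sorting, had 969 and 919.9 in PEPCK-TAg and 842 and 791 in wild type (0.438).

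**Figure D4:**
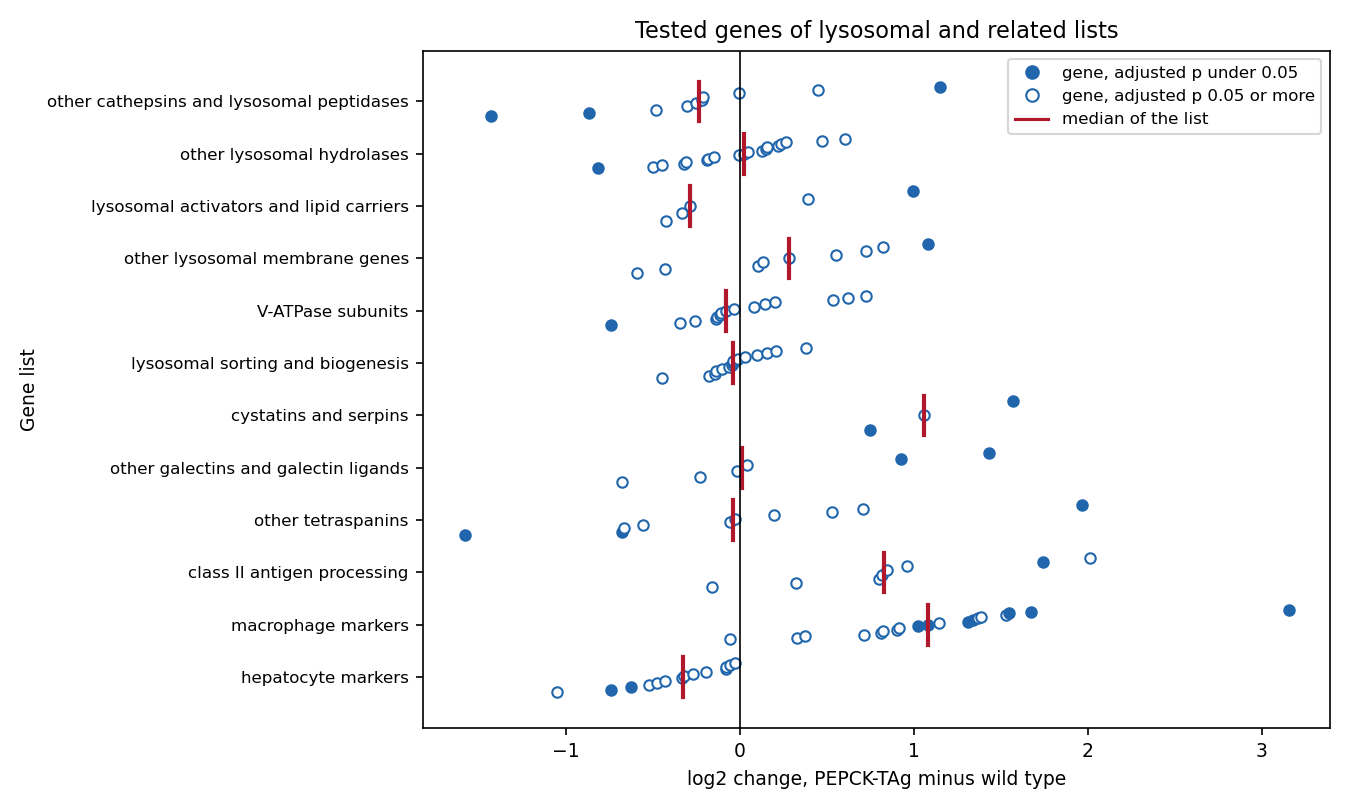
The x axis gives the log2 change, PEPCK-TAg minus wild type, of each tested gene in the lists on the y axis, filled where the adjusted p was under 0.05, with the list median as a red bar. The medians of cystatins and serpins (1.06), class II antigen processing (0.83) and macrophage markers (1.08) lie to the right, and those of the hydrolases (0.03) and V-ATPase subunits (-0.08) near 0.

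Relatives of the membrane proteins and of Lgals3 were split as well. Of 6 other galectins and galectin ligands, 2 rose and 0 fell, with a median of 0.01. Lgals1 had 317 and 449 in PEPCK-TAg and 108 and 160 in wild type, a change of 1.43 ± 0.25 (limma, Benjamini-Hochberg adjusted p = 0.0199). Lgals3bp, which encodes a secreted ligand of galectin-3, had 1014 and 833 in PEPCK-TAg and 469 and 487 in wild type, a change of 0.93 ± 0.17 (limma, Benjamini-Hochberg adjusted p = 0.0219). Neither was called without wild-type replicate 1 (limma, Benjamini-Hochberg adjusted p = 0.0647 and 0.0710), and Lgals3bp not without PEPCK-TAg replicate 1 (0.0887) or wild-type replicate 2 (0.0548). Of 10 other tetraspanins, 1 rose and 2 fell, with a median of -0.04. The leukocyte tetraspanin gene Cd53 had 203 and 302 in PEPCK-TAg and 37.4 and 75.1 in wild type, a change of 1.97 ± 0.33 (limma, Benjamini-Hochberg adjusted p = 0.0165). Tspan33 had 126 and 112 in PEPCK-TAg and 373 and 389 in wild type, a change of -1.58 ± 0.17 (limma, Benjamini-Hochberg adjusted p = 0.00395). The Tspan31 probe set may also detect related transcripts. Tspan31 had 876 and 951 in PEPCK-TAg and 1399 and 1536 in wild type, a change of -0.68 ± 0.15 (limma, Benjamini-Hochberg adjusted p = 0.0394), and lost its call whichever of the 4 arrays was left out (0.0818 to 0.156).

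Class II antigen processing, the pathway in which Ctss acts, had 1 rise and 0 falls among 8 tested genes, a median of 0.83, and 5 higher and 0 lower at an unadjusted p under 0.05 by limma. H2-DMa, which encodes a chain of the peptide exchange factor, had 254 and 278 in PEPCK-TAg and 60.4 and 81.6 in wild type, a change of 1.74 ± 0.21 (limma, Benjamini-Hochberg adjusted p = 0.00573). The invariant chain gene Cd74, whose product Ctss cleaves, had 372 and 600.0 in PEPCK-TAg and 172 and 406 in wild type, and its groups overlapped. The count was 3 without PEPCK-TAg replicate 1, 2 without wild-type replicate 2 and 6 with a replicate block.

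Markers of other cell types of the liver and blood were counted in the same way. Of 14 tested hepatocyte markers, 0 rose and 2 fell, Apoa2 (-0.74) and F2 (-0.62), with a median of -0.33, and both calls were lost with quantile normalization (median -0.01), without the filter, without the trend, and with wild-type replicate 1 or either PEPCK-TAg array left out. In the main fit 0 of the 14 were higher and 7 lower at an unadjusted p under 0.05 by limma. PEPCK-TAg lay below wild type without overlap in 10 of them and above in 0, where 26.3% of all tested probe sets lay below. The Apoa2 probe set may also detect related transcripts. The count of hepatocyte markers that fell was 4 with median centring, 3 with the filter at the 60th percentile and 5 with a replicate block. Of 10 endothelial markers 0 passed, with a median of -0.39 and 0 higher and 3 lower at an unadjusted p under 0.05 by limma, the smallest p being those of Kdr (change -0.57) and Eng (-0.54). Of 8 stellate cell markers 1 rose, the collagen gene Col3a1 (1.44), with a median of 0.27. That call was lost without the filter and without PEPCK-TAg replicate 2, wild-type replicate 1 or wild-type replicate 2 (limma, Benjamini-Hochberg adjusted p = 0.0594 to 0.0960). Of 3 tested neutrophil markers of 13 on the array 0 passed, the smallest p being those of Camp (1.28) and Csf3r (0.13), with 1 higher and 0 lower at an unadjusted p under 0.05 by limma. The 13 signals summed to 940.3 and 891 in PEPCK-TAg and 663 and 590.2 in wild type. S100a8 had 105 and 89.9 in PEPCK-TAg and 20.0 and 16.6 in wild type, and S100a9 had 78.0 and 85.8 in PEPCK-TAg and 12.6 and 26.3 in wild type. Both were under the filter and not tested, and their groups did not overlap, nor did those of Ltf, Mmp9 and Ngp, with PEPCK-TAg above, or of Mpo, with PEPCK-TAg below. The part of neutrophil content in the changes of the lysosomal genes and of Lgals3 was not tested. Of 5 T, natural killer and B cell markers 0 passed, with 1 higher (Jchain, 1.34) and 1 lower (Ms4a1, -0.67) at an unadjusted p under 0.05 by limma. The 1 tested bile duct marker, Cftr, did not pass, with a change of -0.37 (limma, Benjamini-Hochberg adjusted p = 0.455).

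The genes whose levels over the 4 arrays were nearest to 3 of the members were found among 6672 other tested probe sets with a single symbol, by the root mean square difference of mean-centred log2 values. Nearest to Ctss were Il18bp (0.060), Iqgap1 (0.085) and Rtn4 (0.091). Il18bp, for example, had 219 and 334 in PEPCK-TAg and 56.6 and 111 in wild type. Nearest to Lgals3 were Gsta2 (0.13), Cd53 (0.23) and Wee1 (0.24). Nearest to the brightest probe set of Ctsb were Ap2a2 (0.0054), Timm8a1 (0.0065) and Ppil2 (0.0088), all with changes of 0.26 to 0.27, a size at which many probe sets lie. Over 4 arrays such likeness is a description only.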

How the data were processed

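Per the labels, total liver RNA was labelled by the manufacturer's standard protocol and hybridised to Affymetrix MG_U74Av2 arrays, 1 sample each. The deposited values are MAS5 signal intensity on a linear scale, per the submitters' processing notes. No source used here gives the software version, the scaling target or detection calls. The equal trimmed means show that the arrays had been scaled, so no further normalization was applied in the main fit. The median signals still differed between the groups. Per the file headers, the arrays shared chip lot, fluidics station and hybridization time, and each had its own fluidics module, which leaves no batch to test.

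Groups and replicate numbers came from the sample titles. Symbols came from the platform annotation: of 12422 non-control probe sets, 10833 had 1 symbol, 396 several and 1193 were unnamed here. Tests ran on log2(signal + 13), with 5% of the trimmed mean as offset. Probe sets at or above the 40th percentile of mean log2 were tested, 7453 in all. The group difference was tested on both sides with limma 3.58.1 in R 4.3.3 (lmFit, eBayes with a mean-variance trend) with Benjamini-Hochberg adjustment over all tested probe sets and a threshold of 0.05. Degrees of freedom were 2 residual and 4.61 prior, and the number of arrays limits every precision. The procedure was tested on simulated data, and no result of that test is given here. The members, gene lists and motifs were chosen with earlier results of these data known. A gene outside the member list was represented by its probe set of highest mean. Every member probe set is named, and of each other list the genes past the threshold, at most 6 by smallest p, or the 2 of smallest p where none passed. Adgre1, Csf1r, Cd74, Alb, Serpinb6a, the second probe set of Laptm5, the untested neutrophil markers and the within-array differences fall outside that rule and were chosen after their values were seen. Cd68 and Laptm5 stand in 2 lists, as does Tspan8. Promoter windows came from RefSeq, build GRCm38.p6. The alternatives were other offsets, filters, normalizations and variance models, a block for the replicate number, and leaving out each array.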

Additional observations from a re-analysis of the deposited data

How the results depend on the processing

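Over 13 alternatives and 16 probe sets, where a value could be had, member changes kept their direction and their side of the threshold in 164 fits, changed sign in 15, lost a call in 11 and gained one in 4. Lost calls were those of Ctss and Lgals3 given above. The count of members called higher, 3, was 1 without the filter and 1 without the mean-variance trend, Cd63 in each, and 1 to 4 with an array left out. The count of members called lower was 0 in every fit. Over all probe sets 477 were higher and 229 lower. Median centring, which moved the median of all tested probe sets to -0.14, gave 403 and 409, a share of 49.6% higher among those called against 67.6%. The lower count was 105 without the filter and 117 without the trend, and with an array left out the counts were 294 to 401 higher and 94 to 147 lower.

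The labels give both groups replicate numbers 1 and 2, but nothing says that these pair the arrays. Deviations of same-numbered arrays from their group means correlated with r = 0.181 across tested probe sets. With a replicate block 6 members were higher, Ctsb (95608_at), Ctsd and Ctsc (101019_at) being added, and 444 of all probe sets were lower.

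Changes of sign were all in members near 0 or with erratic replicates. Median centring gave -0.14 for Ctsh, -0.090 for Ctsl and -0.0065 for Ctsb (162271_f_at). Lamp1 was at 0.28 with quantile normalization and 0.21 with cyclic loess. With an array left out the ranges were -0.25 to 0.22 for Ctsb (92256_at), -0.25 to 0.53 for Ctsb (162271_f_at), -0.083 to 0.087 for Ctsh, -0.30 to 0.40 for Ctsl, -1.36 to 2.83 for Ctsc (101020_at) and -0.16 to 0.037 for Lamp1. The cause was not tested. In lists, 7 of 24 called genes (Cstb, Cd53, Tspan33, H2-DMa, Cd14, Cd5l and Mpeg1) were called in all 4 fits that left out an array. Without detection calls, signal near background could not be told from absence.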
